A study of Mus musculus with 8 samples.

Results

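The genes described here are mouse genes whose symbol is Gpr followed by a number only, with Gpr83 and Gpr183 left out. They are 82 of the 24016 genes of the deposited expression table. The rule that chose them used no measured value, but it was set with earlier results of these data known. RNA was sequenced from CD4+ T cells of mouse spleen, in 8 libraries that formed 4 groups of 2, called replicates A and B. The monoclonal cells came from the strain NOD.TCRab.FoxP3GFP.Rag-/-, where every T cell uses the same αβ receptor and the Rag recombinase, needed to assemble receptors, is missing. The polyclonal cells came from NOD.FoxP3GFP mice, which assemble a diverse repertoire. All 4 groups share the NOD background, which develops autoimmune diabetes, and a green fluorescent reporter of Foxp3, the transcription factor of regulatory T (Treg) cells. Reporter-positive cells are called Treg and reporter-negative cells non-Treg. Strain, Rag genotype and receptor differed together between the mice and cannot be told apart. The labels give no age, no treatment and no number of animals. The p-values therefore weigh a difference only against the spread between these samples, estimated jointly over groups and genes. That spread may be technical.

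G protein-coupled receptors cross the membrane 7 times and pass an outside signal to heterotrimeric G proteins, which raise or lower messengers such as cyclic AMP. RGS proteins speed the return of G proteins to rest, and receptor kinases and arrestins switch receptors off. In lymphocytes such receptors are best known for steering migration and for tuning activation through cyclic AMP. A Gpr number was given to a receptor-like gene when its ligand was unknown, so the numbers mark a history of naming and not a family. Some of these genes have since been paired with protons, lipids or metabolites, some are adhesion receptors with long outer parts, and some encode membrane proteins of the Golgi or lysosome. The name orphan therefore covers only some of these genes, and they are called numbered Gpr genes here.

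The promoters of 3 numbered Gpr genes that passed the test in both Treg comparisons are shown, because each moved one way in monoclonal and polyclonal mice alike. Gpr97 (Adgrg3 in RefSeq) is an adhesion receptor, Gpr132 belongs to the proton-sensing family, and Gpr174 is a receptor for lysophosphatidylserine. Each sequence is the 250 bases before the start of the gene, 5′ to 3′ on the transcribed strand, from RefSeq on GRCm38.p6. The regions are chr8:95017442-95017691 on the plus strand for Gpr97, chr12:112860917-112861166 on the minus strand for Gpr132 and chrX:107284096-107284345 on the plus strand for Gpr174. Capitals mark matches to 4 motifs searched on both strands.
Gpr97: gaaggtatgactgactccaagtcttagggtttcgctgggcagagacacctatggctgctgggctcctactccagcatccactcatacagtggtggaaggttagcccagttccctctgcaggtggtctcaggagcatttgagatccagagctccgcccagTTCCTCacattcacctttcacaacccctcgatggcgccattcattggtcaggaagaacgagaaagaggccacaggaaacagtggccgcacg
Gpr132: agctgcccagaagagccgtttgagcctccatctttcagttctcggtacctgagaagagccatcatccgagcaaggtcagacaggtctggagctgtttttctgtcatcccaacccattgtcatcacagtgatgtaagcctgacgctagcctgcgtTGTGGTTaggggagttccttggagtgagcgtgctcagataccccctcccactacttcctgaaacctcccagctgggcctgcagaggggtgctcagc
Gpr174: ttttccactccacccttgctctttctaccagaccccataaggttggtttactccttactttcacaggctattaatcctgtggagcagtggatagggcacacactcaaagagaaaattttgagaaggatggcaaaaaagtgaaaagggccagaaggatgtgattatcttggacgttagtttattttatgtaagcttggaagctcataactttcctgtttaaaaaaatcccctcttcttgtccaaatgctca
The motifs were forkhead TGTTTAC, Ets GAGGAA, Runx TGTGGTT and AP-1 TGACTCA or TGAGTCA. The Ets letters stood, as their reverse complement TTCCTC, in the Gpr97 promoter. They occur in 23.3% of all 32851 promoters of the table. The Runx letters stood in the Gpr132 promoter and occur in 4.40% of all promoters. No letters of the 4 motifs were found in the Gpr174 window, which had a GC content of 40.4% beside a median of 52.4% over all promoters. The GC content was 55.2% for Gpr97 and 55.6% for Gpr132. Forkhead letters occur in 3.17% and AP-1 letters in 4.46% of all promoters, and neither was found in the 3 windows. A match describes letters and does not show a bound site.

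The libraries held 14076330 to 19722321 reads, so that 3 reads, the upper limit a count of 0 allows, correspond to 0.152 to 0.213 CPM (counts per 1000000 reads assigned to genes). Only counting error is covered by these limits, as reads lacking molecular identifiers need not be separate molecules. Foxp3 lay between 2281 and 2709 CPM in the Treg libraries. It was 405 and 319 CPM for monoclonal non-Treg A and B and 81.9 and 84.2 for polyclonal non-Treg, so its non-Treg level differed between the mice. All 5 Treg markers listed were higher in Treg cells of both mice. Markers of other cell types were also present. Summed over 9 dendritic cell markers, the level reached 1766 to 2021 CPM for monoclonal non-Treg, 424 to 470 for monoclonal Treg, 38.3 to 45.7 for polyclonal non-Treg and 16.3 to 20.3 in polyclonal Treg libraries. Batf3 and Clec9a were at 0 in both polyclonal Treg libraries, and no marker of that list was at 0 throughout another group. Summed over 10 monocyte and macrophage markers, it was 534 to 633, 228 to 344, 43.4 to 46.0 and 41.1 to 42.3 CPM in the same order. Cd3e, a chain of the T cell receptor complex, was 454 and 406 CPM for the monoclonal non-Treg pair and 623 to 805 CPM in the other 6 libraries. In such bulk samples, fewer cells of a type and less RNA per cell cannot be told apart.

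Of the 82 numbered Gpr genes, 37 reached at least 1 CPM in at least 2 libraries and were tested, 17 had some reads but stayed below that filter, and 28 had no read in any library. Gpr3, Gpr39, Gpr75 and Gpr85 were among those with reads below the filter, and Gpr1, Gpr17, Gpr37, Gpr119 and Gpr139 were among those without a read. A mean of at least 10 CPM over the 8 libraries was reached by 16 genes, and at least 100 CPM by 4. By class, all 3 proton-sensing receptors counted here passed the filter, as did 5 of 7 receptors with lipid or fatty acid ligands, 7 of 15 adhesion receptors, 2 of 4 chemoattractant or migration receptors and 1 of 4 receptors for metabolites or ions. Among 7 multipass proteins outside the classical receptor classes 6 passed, and among 36 other rhodopsin-like genes 13 passed. None of 3 class C receptors and none of 3 constitutively active receptors that raise cyclic AMP passed.

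The numbered Gpr genes together made up 1225 and 1346 CPM for monoclonal Treg A and B, 1574 and 1735 for monoclonal non-Treg, 1118 and 1037 for polyclonal Treg, and 1154 and 1185 for polyclonal non-Treg. The sum was thus highest in monoclonal non-Treg, lowest in polyclonal Treg, and did not overlap between any of the 4 groups. Gpr132 had the highest CPM of these genes in all 8 libraries. Per length of transcript, Gpr132 averaged 167 CPM per kb, ahead of the Golgi protein gene Gpr108 at 49.2 CPM per kb. Gpr146, a gene linked to cholesterol metabolism in liver, Gpr18, a receptor for which lipid mediators have been proposed, and Gpr174 followed at 32.8, 31.7 and 27.96 CPM per kb.

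**Figure D1:**
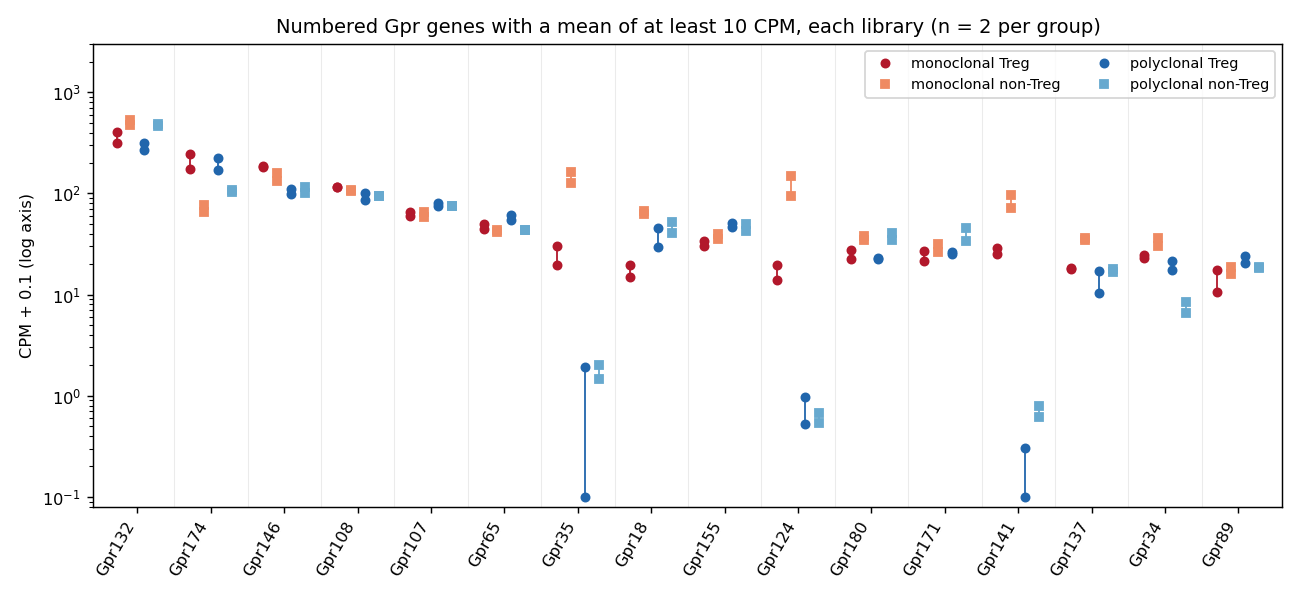
Level of the numbered Gpr genes with a mean of at least 10 CPM, 1 point for each of the 8 libraries coloured by group, on a log axis of CPM + 0.1. Gpr132 lies between 270.1 and 535 CPM in every library, whereas Gpr35 spans 0 to 163 CPM.

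Some abundant members were not called anywhere. Gpr108 was 115 and 115 CPM for monoclonal Treg A and B, 107 and 106 for monoclonal non-Treg, 85.2 and 101 for polyclonal Treg, and 94.3 and 94.2 for polyclonal non-Treg. Gpr107, its relative in the Golgi, was 66.0 and 59.97, 58.8 and 65.1, 75.5 and 80.5, and 74.6 and 74.4 CPM in the same order. Neither passed the test in any of the 5 comparisons made here. Gpr65 (TDAG8), the proton sensor first described in dying thymocytes, did not pass either. It was 49.3 and 44.4 CPM for monoclonal Treg, 43.5 and 41.9 for monoclonal non-Treg, 61.0 and 54.4 for polyclonal Treg, and 43.0 and 42.9 for polyclonal non-Treg. The polyclonal Treg pair was the highest of the 4, but its difference from polyclonal non-Treg, 0.41 on the log2 scale, had an adjusted p of 0.193. Another 13 members that passed the filter were not called in any comparison, among them Gpr171, a peptide receptor of T cells, with 21.3 to 45.6 CPM over the libraries, and Gpr55, a receptor for lysophosphatidylinositol, with 3.66 to 19.1 CPM.

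In monoclonal mice, the comparison of Treg with non-Treg cells asks which receptors differ when the T cell receptor is the same. Of the 37 members tested, 13 passed (35.1%), 3 higher and 10 lower in Treg cells, beside 24.4% of all 12881 genes tested (10.8% higher and 13.6% lower). Their median log2 difference was -0.32, beside -0.02 for all genes. In polyclonal mice, 4 members passed (10.8%), 2 higher and 2 lower in Treg cells, beside 7.9% of all genes (4.63% higher and 3.28% lower), with medians of 0 and 0.00. Differences are of log2(CPM + 1), which understates the change of low genes, and a gene was called at an adjusted p (limma, Benjamini-Hochberg over all genes tested) under 0.05. The split in monoclonal mice depended on scaling. Scaled to the CD3 chain genes (Cd3d, Cd3e and Cd3g), 25 members passed, 3 higher and 22 lower, while 46.7% of all genes passed and the median of all genes moved by -0.64.

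Among the proton-sensing receptors, Gpr132 passed in both mice and Gpr4 in monoclonal mice, while Gpr65, with the values given above, passed in neither. Gpr132 was 314 and 401 CPM for monoclonal Treg A and B, 473 and 535 for monoclonal non-Treg, 314 and 270.1 for polyclonal Treg, and 465 and 484 for polyclonal non-Treg. All 4 Treg libraries thus lay below all 4 non-Treg libraries. It fell by 0.50 ± 0.14 (SE) on the log2 scale in monoclonal Treg cells (adjusted p = 0.0157) and by 0.70 ± 0.14 in polyclonal Treg cells (adjusted p = 0.00436). Gpr4, a receptor best known from blood vessels, was 9.72 and 2.82 CPM for monoclonal Treg, 18.6 and 27.9 for monoclonal non-Treg, and under 1 CPM in the 4 polyclonal libraries. It fell by 1.89 ± 0.51 in monoclonal Treg cells (adjusted p = 0.0142), and its polyclonal levels were too low to show a difference. The Gpr132 call was lost without monoclonal Treg A (adjusted p = 0.149, log2 difference -0.33) or monoclonal non-Treg B (0.187) in monoclonal mice, and without polyclonal non-Treg B (0.0746) or under CD3 scaling (0.179) in polyclonal mice. The Gpr4 call was lost without monoclonal Treg B (adjusted p = 0.116, log2 difference -1.15), monoclonal non-Treg A (0.0523) or B (0.167), with edgeR (0.0891) and with a pseudocount of 0.25 (0.0681).

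**Figure D2:**
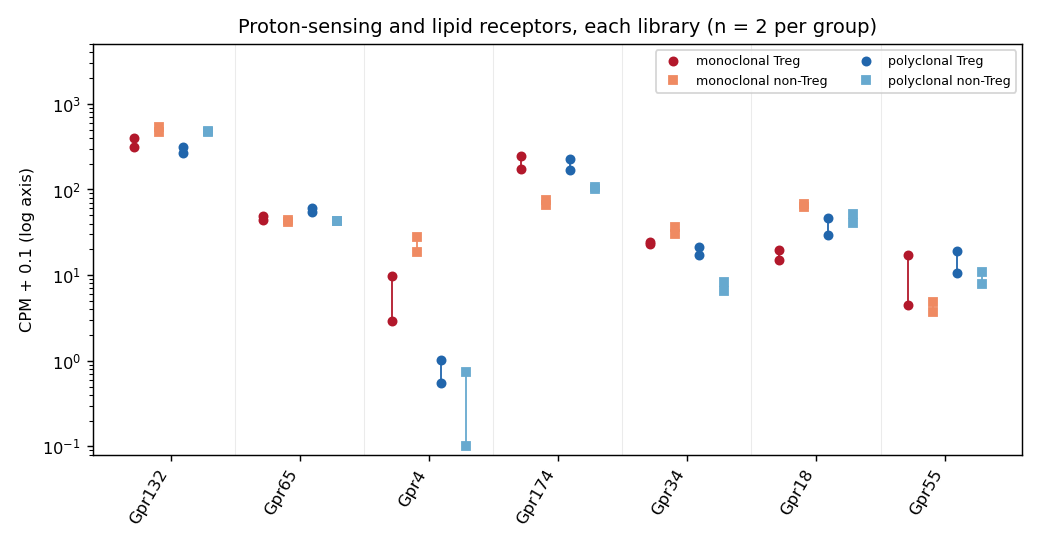
Level of the proton-sensing receptors Gpr132, Gpr65 and Gpr4 and of 4 receptors with lipid ligands (Gpr174, Gpr34, Gpr18, Gpr55), 1 point per library coloured by group, on a log axis of CPM + 0.1. The Treg points of Gpr132 lie below and those of Gpr174 above the non-Treg points of both mice, and the polyclonal points of Gpr4 stay under 1 CPM.

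Among the receptors with lipid ligands, Gpr174 was higher in Treg cells of both mice. This receptor for lysophosphatidylserine raises cyclic AMP and is known to restrain T cells. It was 173 and 244 CPM for monoclonal Treg, 75.9 and 65.1 for monoclonal non-Treg, 225 and 171 for polyclonal Treg, and 108 and 102 for polyclonal non-Treg. Every Treg library was above every non-Treg library. It rose by 1.53 ± 0.18 on the log2 scale in monoclonal Treg cells (adjusted p = 3.09e-05) and by 0.89 ± 0.18 in polyclonal Treg cells (adjusted p = 0.00488). Gpr34, another lysophosphatidylserine receptor, passed in polyclonal mice alone, with 21.4 and 17.2 CPM in Treg and 6.46 and 8.33 in non-Treg libraries (1.28 ± 0.26, adjusted p = 0.00519). In monoclonal mice it was 24.4 and 23.2 CPM in Treg and 30.3 and 36.4 in non-Treg, so the lowest pair of the 4 was polyclonal non-Treg. Gpr18 passed in monoclonal mice alone, with 19.6 and 14.7 CPM in Treg and 66.98 and 62.2 in non-Treg, a fall of 1.86 ± 0.24 (adjusted p = 7.26e-05). In polyclonal mice Gpr18 was 29.3 and 45.8 CPM in Treg and 40.5 and 52.1 in non-Treg, ranges that overlapped. Gpr55 and Gpr84, a receptor for medium-chain fatty acids, were not called. In polyclonal mice the Gpr174 call was lost without polyclonal non-Treg B (adjusted p = 0.0694) and under CD3 scaling (0.121), and the Gpr34 call without polyclonal non-Treg A (0.0908). Gpr18 lies within the span of Ubac2 on the opposite strand, which averaged 120 CPM. Whether their exons overlap was not examined, and no source used here states whether counting used strand. Whether reads of Ubac2 were counted for Gpr18 was not tested.

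Among the adhesion receptors, Gpr97 was lower in Treg cells of both mice. It lies on the plus strand of chromosome 8 beside Gpr56, another adhesion receptor gene. On mm9, Gpr56 spans chr8:97501009-97538108 and Gpr97 chr8:97541592-97569149, with a gap of 3484 bases. Gpr97 was 3.02 and 1.24 CPM for monoclonal Treg, 13.9 and 8.0 for monoclonal non-Treg, 2.49 and 0.355 for polyclonal Treg, and 15.2 and 9.88 for polyclonal non-Treg. Its 4 Treg libraries lay below its 4 non-Treg libraries, at similar levels in both mice. It fell by 1.95 ± 0.50 in monoclonal (adjusted p = 0.0112) and by 2.61 ± 0.50 in polyclonal Treg cells (adjusted p = 0.00395). Gpr56, its neighbour, did not follow, with 6.90 and 0.734 CPM for monoclonal Treg, 2.99 and 2.32 for monoclonal non-Treg, 10.1 and 6.85 for polyclonal Treg, and 2.66 and 2.32 for polyclonal non-Treg. Its polyclonal Treg pair was above both non-Treg pairs, but the difference of 1.42 had an adjusted p of 0.179. The Gpr97 calls were lost without monoclonal Treg B (adjusted p = 0.084) or monoclonal non-Treg A (0.134) in monoclonal mice, and without polyclonal non-Treg A (0.0782) in polyclonal mice.

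**Figure D3:**
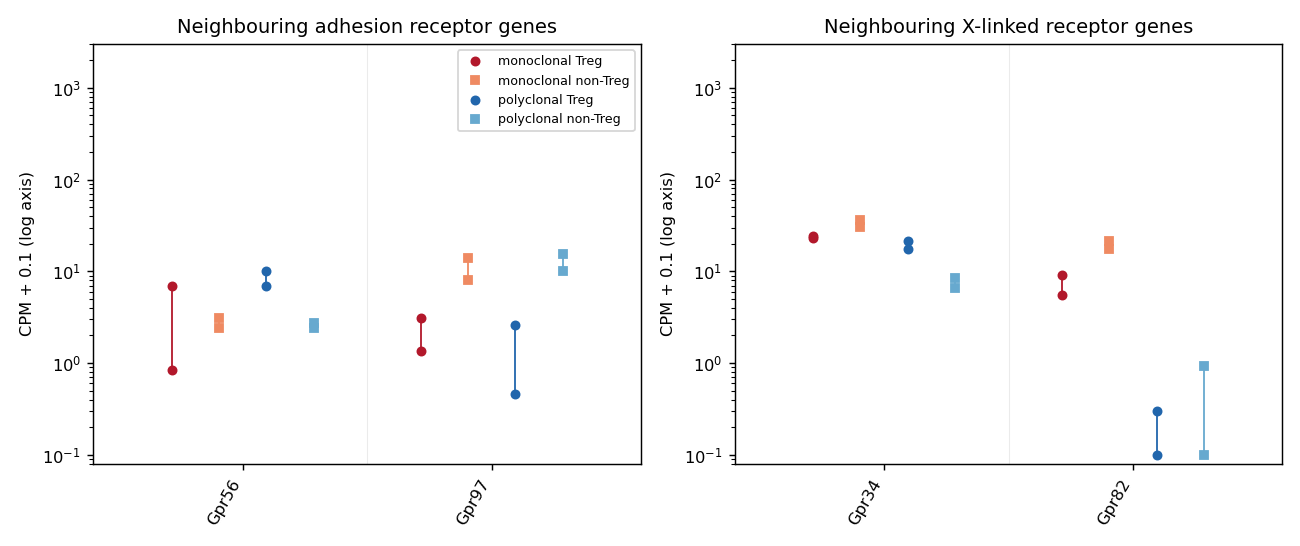
Level of neighbouring numbered Gpr genes, 1 point per library coloured by group, on log axes of CPM + 0.1, with Gpr56 and Gpr97 of chromosome 8 on the left and Gpr34 and Gpr82 of the X chromosome on the right. Gpr97 is lower in Treg than in non-Treg libraries of each kind of mouse, Gpr56 is not, and Gpr82 stays under 1 CPM in polyclonal libraries while Gpr34 does not.

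Gpr124 and Gpr133 changed in monoclonal mice. Gpr124 (Adgra2), which acts in Wnt7 signalling of brain vessels, was 19.6 and 13.9 CPM for monoclonal Treg, 93.5 and 149 for monoclonal non-Treg, 0.426 and 0.862 for polyclonal Treg, and 0.443 and 0.581 for polyclonal non-Treg. It fell by 2.76 ± 0.36 in monoclonal Treg cells (adjusted p = 9.14e-05), and both polyclonal groups were under 1 CPM and overlapped. Gpr133 (Adgrd1) was 17.9 and 15.7 CPM for monoclonal Treg, 3.33 and 2.26 for monoclonal non-Treg, 1.07 and 1.98 for polyclonal Treg, and 1.20 and 4.65 for polyclonal non-Treg. Only the monoclonal Treg pair stood apart, and the gene rose by 2.24 ± 0.47 there (adjusted p = 0.00312), a call lost without monoclonal non-Treg B (adjusted p = 0.0585). The remaining adhesion receptors tested, Gpr116, Gpr125 and Gpr126, were not called in either Treg comparison.

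Gpr35, Gpr141, Gpr82, Gpr157 and Gpr137 were lower, and Gpr63 was higher, in Treg than in non-Treg cells of monoclonal mice. Gpr35, a receptor of gut and myeloid cells for which tryptophan metabolites are among the proposed ligands, was 29.9 and 19.7 CPM for monoclonal Treg, 127 and 163 for monoclonal non-Treg, 0 and 1.83 for polyclonal Treg, and 1.90 and 1.36 for polyclonal non-Treg. It fell by 2.52 ± 0.43 on the log2 scale (adjusted p = 0.000727; 0.204 with DESeq2). The orphan receptor gene Gpr141 was 25.3 and 29.0 CPM for monoclonal Treg and 71.4 and 95.5 for monoclonal non-Treg, and under 1 CPM in all polyclonal libraries. It fell by 1.57 ± 0.34 (adjusted p = 0.00406; 0.0972 without monoclonal non-Treg B). In monoclonal cells both genes were higher in non-Treg than in Treg libraries without overlap, and in polyclonal cells Gpr35 was at most 1.90 CPM. The orphan Gpr82 was 9.07 and 5.36 CPM for monoclonal Treg and 17.4 and 21.5 for monoclonal non-Treg (-1.35 ± 0.44, adjusted p = 0.0384). The orphan Gpr157 was 4.73 and 9.32 CPM for monoclonal Treg and 15.2 and 22.1 for monoclonal non-Treg (-1.33 ± 0.43, adjusted p = 0.0364). These low genes did not overlap between the groups, yet their calls were lost in several settings.

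The Gpr82 call was lost without monoclonal Treg B (adjusted p = 0.162), monoclonal non-Treg A (0.116) or B (0.247) and polyclonal non-Treg A (0.0524) or B (0.0501), with edgeR (0.196) and with DESeq2 (0.604). The Gpr157 call was lost without monoclonal Treg A (adjusted p = 0.183) and monoclonal non-Treg A (0.0865) or B (0.292), and with edgeR (0.0618). Gpr137, a lysosomal membrane protein gene that was chosen for mention after its values were seen, was 17.9 and 18.4 CPM for monoclonal Treg and 36.0 and 34.5 for monoclonal non-Treg, a fall of 0.92 ± 0.27 (adjusted p = 0.0216). That call was lost without any 1 of the 4 monoclonal libraries, with adjusted p between 0.0575 and 0.128. The orphan Gpr63 was 1.58 and 3.05 CPM for monoclonal Treg and 0.166 and 0 for monoclonal non-Treg (1.58 ± 0.48, adjusted p = 0.0262). Gpr63 passed the filter through the monoclonal Treg libraries only and could hardly have been called lower there. Nothing is therefore read from the direction of this call. At 3 reads or fewer in each monoclonal non-Treg library no fold is given for Gpr63, and the call was lost with edgeR (adjusted p = 0.183), with DESeq2 (0.111) and without monoclonal Treg B (0.101) or monoclonal non-Treg A (0.09) or B (0.166).

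Some markers of other cells moved with these monoclonal differences, but not those of every cell type. None of the 9 neutrophil markers tested was called, with sums of 265 to 1441 CPM for monoclonal Treg and 85.4 to 485 for monoclonal non-Treg. None of the 6 erythroid and platelet markers tested was called either. Of the 9 dendritic cell markers, 7 were lower in the Treg cells of monoclonal mice, and of the 10 monocyte and macrophage markers 4 were lower. Itgax, the dendritic cell integrin CD11c, was 245 and 241 CPM for monoclonal Treg, 961 and 1234 for monoclonal non-Treg, 8.45 and 2.13 for polyclonal Treg, and 10.4 and 10.9 for polyclonal non-Treg. Its order over the groups was that of Gpr124, Gpr35 and Gpr141 in monoclonal mice. Gpr174 and Gpr133 ran the other way. Of the 9 B cell markers, 6 were tested and 4 were lower in monoclonal Treg cells, with sums of 50.1 to 70.0 CPM beside 249 to 308 for monoclonal non-Treg, and Ms4a1 and Pax5 were at 0 for monoclonal Treg. In polyclonal mice, 2 dendritic cell markers and 1 monocyte and macrophage marker were lower in Treg cells. The part of these cells in the receptor differences was not tested.

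**Figure D4:**
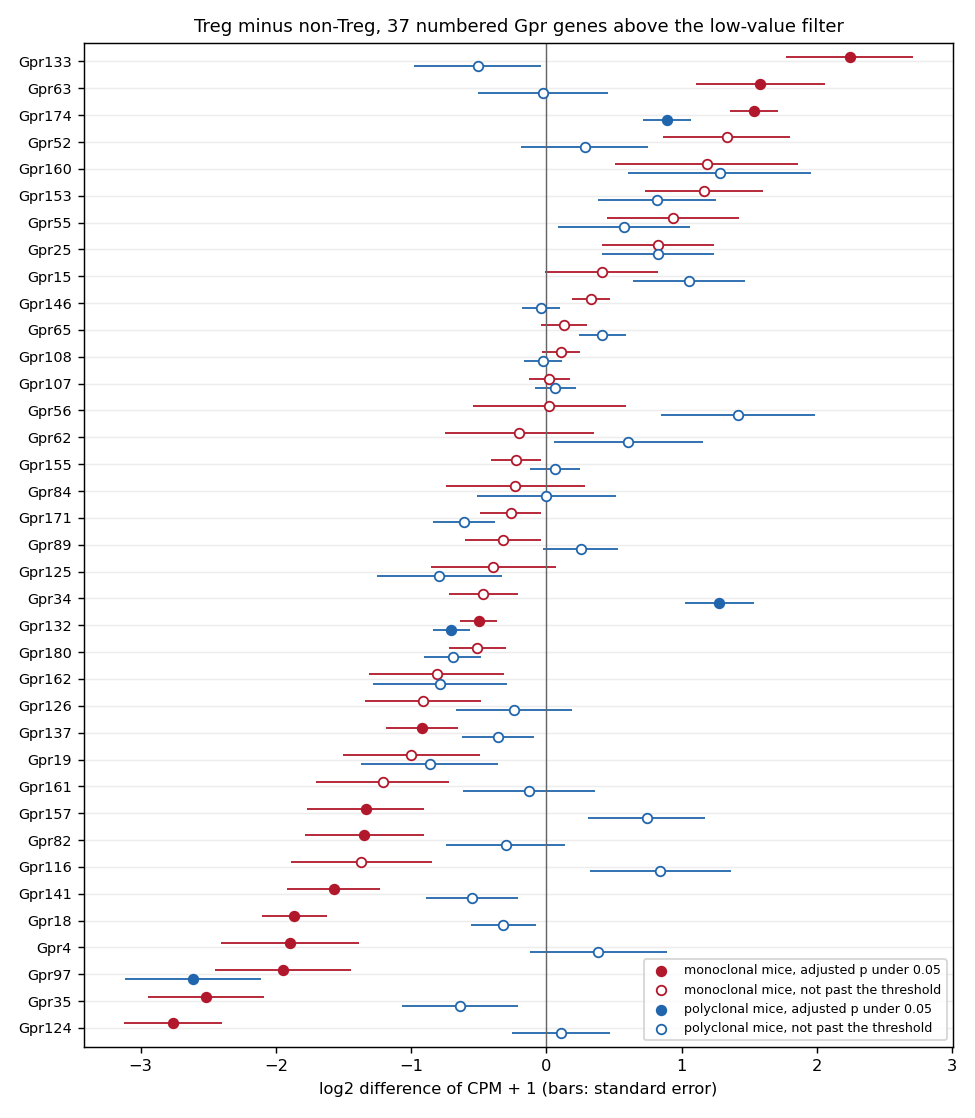
Difference between Treg and non-Treg cells for the 37 numbered Gpr genes tested, in monoclonal (red) and polyclonal (blue) mice, on the scale of log2(CPM + 1) with standard errors as bars and filled points for an adjusted p under 0.05. Gpr97 and Gpr132 lie below 0 and Gpr174 above 0 in both mice. A difference between the mice was called for Gpr34, Gpr124, Gpr133, Gpr18 and Gpr157.

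The difference between the Treg effects was tested directly, as monoclonal minus polyclonal. Of the 37 members, 5 passed (13.5%), 1 higher and 4 lower, beside 9.2% of all genes (3.64% higher and 5.56% lower), with medians of -0.23 and -0.03. Gpr133 had a positive difference, 2.75 ± 0.66 (adjusted p = 0.0186). Gpr124 had the largest negative difference, -2.87 ± 0.51 (adjusted p = 0.0033), which rests on polyclonal levels under 1 CPM. It passed the filter through monoclonal libraries only, so no unequal Treg effect is read from that value. Gpr157 followed with -2.08 ± 0.61 (adjusted p = 0.0477), Gpr34 with -1.74 ± 0.36 (adjusted p = 0.00783) and Gpr18 with -1.55 ± 0.34 (adjusted p = 0.0107). Gpr34 was the one among these 5 whose difference was called in polyclonal mice and not in monoclonal mice, and the other 4 were called in monoclonal mice alone. The Treg effects of Gpr132, Gpr97 and Gpr174 were not found to differ between the mice (adjusted p of 0.587, 0.636 and 0.133), with differences of 0.20 ± 0.19, 0.66 ± 0.71 and 0.64 ± 0.25. Scaled to CD3, 10 members passed, 1 higher and 9 lower, while 15.0% of all genes passed and the median of all genes moved by -0.60. Calls were also lost without single libraries: Gpr133 without monoclonal non-Treg A (adjusted p = 0.0601), monoclonal non-Treg B (0.128) or polyclonal non-Treg B (0.139), Gpr34 without monoclonal non-Treg B (0.0771) or polyclonal non-Treg A (0.052), Gpr124 without monoclonal non-Treg B (0.0592), Gpr18 without monoclonal non-Treg A (0.0702), monoclonal non-Treg B (0.0685) or polyclonal non-Treg A (0.0768), and Gpr157 without monoclonal Treg A (0.102), monoclonal non-Treg A (0.103) or B (0.249), polyclonal Treg A (0.0592) or B (0.0772) or polyclonal non-Treg A (0.232).

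Monoclonal and polyclonal cells of each type were then compared. In Treg cells 14 of 37 members passed (37.8%), 11 higher and 3 lower in monoclonal mice, beside 24.2% of all genes (12.1% higher and 12.1% lower). In non-Treg cells 15 passed (40.5%), 13 higher and 2 lower, beside 19.4% of all genes (12.1% higher and 7.35% lower). The median log2 differences were 0.31 in Treg and 0.08 in non-Treg cells, beside -0.03 and -0.07 for all genes. Of the 37 members tested, 8 passed the filter through monoclonal libraries only, namely Gpr4, Gpr63, Gpr82, Gpr84, Gpr124, Gpr126, Gpr141 and Gpr161. Such genes could hardly be called lower in monoclonal mice, so nothing is read from the split between higher and lower. The 5 comparisons share groups, so their counts are not independent.

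Gpr124, Gpr35 and Gpr141 had the largest differences between the mice in both cell types. Gpr124 was higher by 3.43 ± 0.36 in Treg (adjusted p = 9.93e-06) and by 6.30 ± 0.36 in non-Treg cells (adjusted p = 1.19e-08), from under 1 CPM in all polyclonal libraries. Gpr35 was higher by 3.91 ± 0.43 in Treg (adjusted p = 1.43e-05) and by 5.79 ± 0.43 in non-Treg cells (adjusted p = 1.65e-07). Gpr141 was higher by 4.68 ± 0.34 in Treg (adjusted p = 2.1e-07) and by 5.70 ± 0.34 in non-Treg cells (adjusted p = 1.78e-08). Gpr124 and Gpr141 passed the filter through monoclonal libraries only and could hardly have been called lower there. Nothing is therefore read from their lack of overlap between the mice or from how their calls held. Gpr35, which also reached 1 CPM in polyclonal libraries, had no overlap between the mice. Its calls between the mice held under all 18 alternative settings.

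The X-linked neighbours Gpr34 and Gpr82 differed in pattern. On mm9 they lie 20505 bases apart at chrX:13209895-13217984 and chrX:13238489-13244559, on 1 strand and inside Cask on the other. Cask averaged 6.70 CPM, beside 6.79 for Gpr82 and 7.39 for Gpr34 in its lowest group. As for Gpr18 and Ubac2, whether reads of Cask were counted for these genes was not tested. Gpr82 was 0 and 0.203 CPM for polyclonal Treg and 0.823 and 0 for polyclonal non-Treg. It was higher in monoclonal mice by 2.87 ± 0.44 in Treg (adjusted p = 0.000299) and by 3.91 ± 0.44 in non-Treg cells (adjusted p = 1.25e-05). Gpr34 passed in non-Treg cells alone, higher by 2.04 ± 0.26 (adjusted p = 3.57e-05), beside 0.29 (adjusted p = 0.444) in Treg cells. Gpr4 was higher by 1.94 ± 0.51 in Treg (adjusted p = 0.0128) and by 4.21 ± 0.51 in non-Treg cells (adjusted p = 2.42e-05). Both Gpr82 and Gpr4 passed the filter through monoclonal libraries only and could hardly have been called lower there. Nothing is therefore read from the direction of their differences between the mice. The Treg call of Gpr4 was lost without monoclonal Treg A (adjusted p = 0.1, log2 difference 1.19), without polyclonal Treg B (0.0524) and when the fit used just the 4 libraries of the comparison (0.0549).

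Gpr133 and Gpr63 were higher in monoclonal Treg than polyclonal Treg cells and did not pass in non-Treg cells. The differences in Treg cells were 2.84 ± 0.47 for Gpr133 (adjusted p = 0.000522) and 1.42 ± 0.48 for Gpr63 (adjusted p = 0.0437). In non-Treg cells they were 0.09 and -0.18. The test of the difference between the Treg effects is also the test of these differences between cell types, and it passed for Gpr133 and missed for Gpr63 (adjusted p = 0.163). The Gpr63 call was lost in 13 of the 17 settings that tested it, with adjusted p up to 0.292 (edgeR). Gpr63 did not reach the filter of 5 CPM. It passed the filter of 1 CPM through the monoclonal Treg libraries only, so nothing is read from the direction of its difference. Its call was among others lost without monoclonal Treg B (log2 difference 1.09), polyclonal Treg A (1.15) or B (1.69), or any 1 of the non-Treg libraries (1.42). Gpr157 passed in non-Treg cells alone, where it was 15.2 and 22.1 CPM in monoclonal and 1.52 and 4.26 in polyclonal libraries (2.41 ± 0.43, adjusted p = 0.000881), and in polyclonal Treg it was 4.69 and 5.53 CPM.

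Gpr126 (Adgrg6), an adhesion receptor needed for myelination by Schwann cells, was 2.96 and 2.32 CPM for monoclonal Treg, 5.05 and 6.71 for monoclonal non-Treg, 0 and 0 for polyclonal Treg, and 0 and 0.387 for polyclonal non-Treg. Its level was at least 14.4-fold higher in monoclonal than polyclonal Treg cells, taken against the limit of 3 reads per library. The fitted differences were 1.86 ± 0.43 in Treg (adjusted p = 0.00596) and 2.54 ± 0.43 in non-Treg cells (adjusted p = 0.000552). Gpr126 passed the filter through monoclonal libraries only and could hardly have been called lower there. Nothing is therefore read from the direction of its differences between the mice. Gpr146 was 185 and 182 CPM for monoclonal Treg, 159 and 134 for monoclonal non-Treg, 112 and 98.8 for polyclonal Treg, and 116 and 99.98 for polyclonal non-Treg. All 4 monoclonal libraries were above all 4 polyclonal libraries. It rose by 0.80 ± 0.14 in Treg (adjusted p = 0.000943; 0.0782 under CD3 scaling) and by 0.43 ± 0.14 in non-Treg cells (adjusted p = 0.046). The non-Treg call of Gpr146 was lost without monoclonal non-Treg A (adjusted p = 0.338) or B (0.0723), polyclonal non-Treg A (0.0965) or B (0.382), and monoclonal Treg A (0.0512) or B (0.0519). Gpr146 overlaps 3110082I17Rik on the other strand, which averaged 3.79 CPM.

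Gpr15, Gpr18, Gpr155 and Gpr174 were lower in monoclonal mice in at least 1 cell type. Gpr15, which guides T cells to the colon, was 3.22 and 1.41 CPM for monoclonal Treg, 1.11 and 1.74 for monoclonal non-Treg, 10.5 and 12.8 for polyclonal Treg, and 5.82 and 4.39 for polyclonal non-Treg. The polyclonal Treg pair was the highest and the 4 monoclonal libraries were the lowest. It fell by 1.98 ± 0.41 for monoclonal Treg (adjusted p = 0.00309) and by 1.33 ± 0.41 in monoclonal non-Treg cells (adjusted p = 0.0355). Gpr18 fell by 1.06 ± 0.24 in monoclonal Treg cells (adjusted p = 0.00494), and the non-Treg difference of 0.48 had an adjusted p of 0.192. Gpr155, whose protein senses cholesterol at the lysosome, was 33.9 and 30.1 CPM for monoclonal Treg and 50.4 and 46.3 for polyclonal Treg, a fall of 0.58 ± 0.19 (adjusted p = 0.0347). Gpr174 fell by 0.57 ± 0.18 in monoclonal non-Treg cells (adjusted p = 0.0355), and its Treg levels overlapped between the mice. The order of these changes depended on scaling, since under CD3 scaling the median of all genes moved by 0.50 in non-Treg cells, Gpr174 had a difference of -0.04 (adjusted p = 0.925), and Gpr15 an adjusted p of 0.123. In that setting 15 members passed, all higher and some of them among the 8 that passed the filter through monoclonal libraries only, beside 22.8% of all genes.

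The non-Treg call of Gpr15 was lost without monoclonal non-Treg A (adjusted p = 0.206) or B (0.103) and polyclonal non-Treg A (0.265) or B (0.122), and with edgeR (0.076). The non-Treg call of Gpr174 was lost without monoclonal non-Treg A (adjusted p = 0.0848) or B (0.291) and polyclonal non-Treg A (0.209) or B (0.133), with edgeR (0.096) and with DESeq2 (0.0697). With TMM scaling the non-Treg call of Gpr174 was lost too (adjusted p = 0.0717). The Gpr155 call was lost with TMM scaling (adjusted p = 0.0610), under CD3 scaling (0.0805) and in the fit of only the libraries compared (0.140). It was also lost without monoclonal Treg B (log2 difference -0.50), polyclonal Treg A (-0.52) or any single non-Treg library (-0.58).

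A further 4 genes were called between the mice, of which Gpr25, Gpr137 and Gpr161 are named after their values were seen. Gpr25, a relative of Gpr15, was 7.95 and 4.57 CPM for monoclonal Treg, 2.88 and 3.10 for monoclonal non-Treg, 1.56 and 1.67 for polyclonal Treg, and 0.380 and 0.581 for polyclonal non-Treg. It ran against Gpr15, higher in monoclonal mice by 1.43 ± 0.42 in Treg (adjusted p = 0.022) and by 1.43 ± 0.42 in non-Treg cells (adjusted p = 0.0251). Gpr162 was 3.35 and 5.14 CPM for monoclonal Treg, 8.76 and 7.42 for monoclonal non-Treg, 0.071 and 1.22 for polyclonal Treg, and 2.97 and 0.775 for polyclonal non-Treg, without overlap between the mice in either cell type. It was higher by 1.75 ± 0.50 in Treg (adjusted p = 0.02) and by 1.77 ± 0.50 in non-Treg cells (adjusted p = 0.0208). Gpr137 was higher in monoclonal non-Treg cells by 0.99 ± 0.27 (adjusted p = 0.0162), above 16.5 and 17.9 CPM in the polyclonal pair. Gpr161, a receptor of the primary cilium, was 2.77 and 2.19 CPM for monoclonal non-Treg beside 0 and 0.194 for polyclonal non-Treg, higher by 1.67 ± 0.49 (adjusted p = 0.0266). Gpr161 passed the filter through monoclonal libraries only, so nothing is read from the direction of its difference. Each of these 6 calls was lost without single libraries, and all but that of Gpr137 were also lost with edgeR. In Treg cells the edgeR adjusted p was 0.105 for Gpr25 and 0.0799 for Gpr162. In non-Treg cells the edgeR values were 0.0528 for Gpr25, 0.168 for Gpr162 and 0.216 for Gpr161. DESeq2 did not call Gpr162 (adjusted p = 0.0990) or Gpr161 (0.134) in non-Treg cells. In Treg cells, Gpr25 was lost without monoclonal Treg A (0.0879), polyclonal Treg A (0.0851) or B (0.0553), and Gpr162 without monoclonal Treg B (0.0909) or polyclonal Treg A (0.159), all as adjusted p. In non-Treg cells, Gpr25, Gpr137 and Gpr161 were lost without any 1 of the 4 non-Treg libraries, with adjusted p of 0.113 to 0.184, 0.0868 to 0.134 and 0.114 to 0.190, and Gpr162 without monoclonal non-Treg A (0.146) or B (0.111) or polyclonal non-Treg B (0.287).

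**Figure D5:**
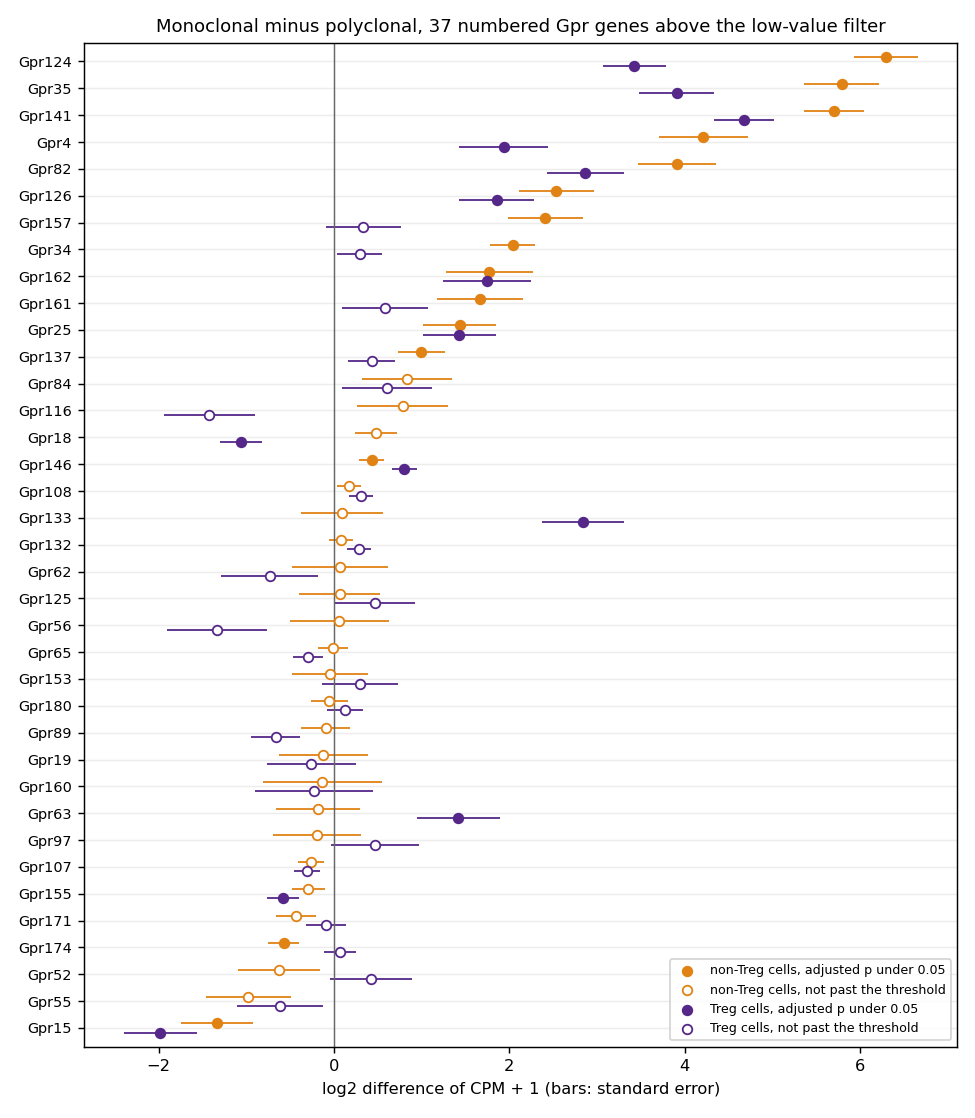
Difference between monoclonal and polyclonal mice for the 37 numbered Gpr genes tested, in non-Treg (orange) and Treg (purple) cells, on the scale of log2(CPM + 1) with standard errors as bars and filled points for an adjusted p under 0.05. Gpr124, Gpr35 and Gpr141 lie furthest above 0, and Gpr15 lies below 0 in both cell types.

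Markers of other cells were also higher in monoclonal mice. Of the 9 dendritic cell markers, 7 were called higher in Treg and 8 in non-Treg cells of monoclonal mice, and of the 10 monocyte and macrophage markers, 6 were higher in each. Csf1r, the receptor that defines monocytes and macrophages, was 55.1 and 45.9 CPM for monoclonal Treg, 108 and 136 for monoclonal non-Treg, 6.68 and 6.14 for polyclonal Treg, and 5.25 and 2.78 for polyclonal non-Treg. Of 9 neutrophil markers in the table, 8 and 7 were higher, with sums of 265 to 1441 CPM for monoclonal Treg, 85.4 to 485 for monoclonal non-Treg, 16.3 to 49.2 for polyclonal Treg and 14.8 to 37.5 for polyclonal non-Treg. Fcgr1 and Retnlg were at 0 in both polyclonal Treg libraries, and Camp, Ltf and Retnlg in both polyclonal non-Treg libraries. Sums over 8 NK cell markers were 59.5 to 61.2, 81.1 to 87.1, 30.8 to 45.2 and 89.9 to 90.0 CPM in the same order of groups. Gpr35, Gpr124, Gpr141 and Gpr4 were higher in the same libraries as the dendritic cell and monocyte markers, and the part of such cells in these results was not tested.

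The genes that carry the signal of these receptors were read from lists. For comparison, 24.4% of all genes tested were called between monoclonal Treg and non-Treg cells (10.8% higher and 13.6% lower in Treg). In polyclonal mice the share was 7.9% (4.63% higher and 3.28% lower). Of 27 G protein subunit genes, 20 were tested, 2 were higher in monoclonal Treg cells and 3 in polyclonal Treg cells, and none was lower in either. Gna15, an alpha subunit of blood cells, was 105 and 111 CPM for monoclonal Treg and 25.7 and 27.0 for monoclonal non-Treg (1.997 ± 0.21, adjusted p = 1.37e-05). Of 19 RGS genes, 11 were tested, with 3 higher and 5 lower in monoclonal Treg and 3 higher and 1 lower in polyclonal Treg cells. Rgs9 rose by 2.22 ± 0.32 in monoclonal and by 3.11 ± 0.32 in polyclonal Treg cells. Rgs1 rose by 2.66 ± 0.12 in polyclonal Treg cells (adjusted p = 1.52e-08), from 32.7 and 32.5 CPM in non-Treg to 199 and 224 in Treg libraries. In monoclonal mice Rgs1 fell by 0.39 ± 0.12 (adjusted p = 0.0324), with 283 and 287 CPM in Treg and 372 and 374 in non-Treg libraries. Of 7 arrestin and receptor kinase genes, 1 was higher and 2 were lower in monoclonal Treg, and 2 were lower in polyclonal Treg cells. The kinase gene Adrbk2 was 156 and 143 CPM for monoclonal Treg, 647 and 815 for monoclonal non-Treg, 2.56 and 1.52 for polyclonal Treg, and 7.78 and 9.10 for polyclonal non-Treg. Its 4 groups were fully apart, and it fell by 2.28 ± 0.21 in monoclonal (adjusted p = 4.7e-06) and by 1.65 ± 0.21 in polyclonal Treg cells.

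Of 25 cyclic AMP pathway genes, 22 were tested, with 7 higher and 7 lower in monoclonal Treg and 2 higher and 6 lower in polyclonal Treg cells. The shares of all genes called in these 2 comparisons were 24.4% and 7.9%. Rapgef4, an exchange factor opened by cyclic AMP, fell by 3.94 ± 0.37 in monoclonal Treg cells and fell by 2.86 ± 0.37 in polyclonal Treg cells. The phosphodiesterase gene Pde3b fell by 2.17 ± 0.39 and fell by 3.52 ± 0.39 in the same order. Of 33 other receptors for lipids and nucleotides, 30 were tested, with 11 higher and 4 lower in monoclonal Treg and 5 higher and 1 lower in polyclonal Treg cells. P2ry10, another receptor for lysophosphatidylserine, rose as Gpr174 did, with 369 and 344 CPM for monoclonal Treg, 98.0 and 92.5 for monoclonal non-Treg, 158 and 157 for polyclonal Treg, and 71.0 and 84.9 for polyclonal non-Treg. Its differences were 1.89 ± 0.13 and 1.01 ± 0.13. Ptger2, a prostaglandin E2 receptor that raises cyclic AMP, rose by 1.89 ± 0.24 and 1.33 ± 0.24. The medians of the 5 lists, in the order given, were 0.10, -0.39, -0.28, -0.18 and 0.00 in monoclonal and 0.14, 0.03, -0.24, 0.00 and -0.03 in polyclonal mice, beside -0.02 and 0.00 for all genes. The list of G protein subunits changed with the setting, since limma called 7 in monoclonal and 0 in polyclonal mice under CD3 scaling, where 3 had an unadjusted p under 0.05 and edgeR called 1 without that scaling.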

How the data were processed

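Gene expression was measured in 8 libraries of spleen CD4+ T cells, 2 for each of 4 groups taken from the labels. The authors deposited 1 table of CPM values for 24016 genes, each with 1 RefSeq transcript, its length and its mm9 position. Per the labels' protocols, poly-dT selected mRNA gave stranded libraries read as single ends of 50 bp. Tools named in the submitters' processing notes, without their roles, are STAR 2.4.1a, HOMER 4.7, edgeR, Trimmomatic 0.33, CASAVA 1.8.2 and FastQC 0.10.1, with the build mm9. The treatment of reads that match several genes is not given there. The rule took 84 genes, of which 82 have 1 copy each in the table and are described. Another 2 stay in the fit over all genes and are not reported here. Of the deposited CPM values, 100% were whole multiples of 1 read within 0.01 read, which gave whole reads and the depths printed.

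The members and the gene lists were chosen with earlier results of these data known. The main test was limma 3.58.1 (R 4.3.3) on log2(CPM + 1), with trend and robust spread, 1 mean for each of 4 groups, 4 residual degrees of freedom, 2-sided, over the 12881 genes that reached 1 CPM in 2 libraries or more, with Benjamini-Hochberg adjustment and a threshold of 0.05. Errors are SE for differences. The fit was tested on simulated data. Alternatives were edgeR 4.0.16 (quasi-likelihood) and DESeq2 1.42.0 on the recovered reads, TMM scaling, scaling to the CD3 chain genes, pseudocounts of 0.25 and 4, no filter, a filter at 5 CPM, a fit of only the libraries compared, the replicate letter as a block, and leaving out each library.

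Named are members called in a comparison, at most the 8 largest differences in each direction, and the 10 with the highest mean CPM; of each gene list, the 3 called genes with the largest difference in each Treg comparison and a mean of at least 10 CPM could be named. Levels per kb divide CPM by transcript length. Promoters are from RefSeq (GRCm38.p6); 79 of 82 members matched by accession, and 57 had a promoter there. Copies of a library were checked for, and no pair of replicates agreed within sampling noise.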

Additional observations from a re-analysis of the deposited data

Results flagged for a closer look

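A difference between the Treg effects of monoclonal and polyclonal mice was called for 5 numbered Gpr genes, by the test of the difference itself. On the log2 scale, as monoclonal minus polyclonal effect, it was 2.75 for Gpr133, -1.55 for Gpr18, -1.74 for Gpr34, -2.08 for Gpr157 and -2.87 for Gpr124. For Gpr34 the point estimates had opposite signs, -0.47 in monoclonal and 1.28 in polyclonal mice. The monoclonal value was not called and the polyclonal value was. For Gpr133 and Gpr157 they also had opposite signs, and the monoclonal values were called while the polyclonal ones were not. Gpr124 was under 1 CPM in all polyclonal libraries and passed the filter through monoclonal libraries only. Its polyclonal effect could hardly leave 0 on this scale, so no unequal Treg effect is read for it. None of these 5 calls held under every alternative setting.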

How the results depend on the processing

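With 2 libraries a group, and low levels for many members, a single library can decide a call. Of 51 member calls, 19 held under all settings run, 32 were lost under at least 1, and none was reversed. Members called numbered 13 in monoclonal Treg against non-Treg cells, 25 with CD3 scaling, and 6 to 14 when 1 library was left out, while the share of all genes called was 24.4%, 46.7% and 10.1% to 29.3% (7 members without monoclonal non-Treg A, 6 without B). In polyclonal mice 4 were called, 2 with CD3 scaling, and 2 to 6 when 1 library was left out, with shares of all genes of 7.9%, 4.07% and 3.33% to 9.56% (2 members without polyclonal non-Treg A or B). DESeq2 called 6 there, 2 higher and 4 lower, and 9.82% of all genes. In the test of the difference between the Treg effects, edgeR called 7.35% and DESeq2 10.9% of all genes. For the difference between these effects 5 were called, 10 with CD3 scaling, 8 with a pseudocount of 4, 2 without the filter, and 0 to 7 when 1 library was left out, with shares of all genes of 9.2%, 15.0%, 11.7%, 4.68% and 2.80% to 12.9% (2 members without monoclonal non-Treg A or polyclonal non-Treg A). The count of 0 is limma's without monoclonal non-Treg B, where 7 members had an unadjusted p under 0.05, and edgeR and DESeq2, which were run on all libraries only, called 4 each. Between the mice 14 were called in Treg cells, 9 when the fit used just the compared libraries and 10 to 13 when 1 library was left out, with shares of all genes of 24.2%, 13.4% and 18.8% to 27.8%. In non-Treg cells 15 were called and 8 to 15 when 1 was left out, with shares of 19.4% and 10.7% to 25.1% (8 members without monoclonal non-Treg A, B or polyclonal non-Treg B, 9 without polyclonal non-Treg A).

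For the lists, in monoclonal and then polyclonal mice, G protein subunits had 2 and 3 calls, 1 and 1 with edgeR, 7 and 0 with CD3 scaling (limma, with 3 at an unadjusted p under 0.05 in place of the 0), 4 and 1 in fits of only the libraries compared, 1 with TMM scaling in monoclonal mice and 1 without the filter in polyclonal mice. Leaving out 1 library gave 1 to 6 and 1 to 4 for G protein subunits, 5 to 8 and 2 to 5 for RGS genes, 1 to 4 and 1 to 5 for arrestins and kinases, 4 to 15 and 2 to 8 for the cyclic AMP genes, and 9 to 16 and 2 to 8 for the other receptors. In polyclonal mice CD3 scaling gave 1 call for arrestins and kinases, 3 for the cyclic AMP genes and 3 for the other receptors, and fits of only the libraries compared gave 1 for arrestins and kinases and 5 for the cyclic AMP genes. The cause of these changes was not tested.

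The labels do not say whether replicates A and B pair the groups. The A deviations of 2 groups correlated by -0.0930 to 0.0969. The highest values were between Treg and non-Treg cells of the same mice, 0.0969 in monoclonal and 0.0752 in polyclonal mice. A pairing of the groups by letter is therefore not excluded. With the replicate block, 13, 4, 5, 13 and 15 members were called in the 5 comparisons, beside 23.5%, 7.34%, 8.49%, 23% and 18.6% of all genes. With that block, G protein subunits had 1 and 1 calls, and arrestins and kinases had 1 in monoclonal mice. Among members the block ended only the call of Gpr63 between monoclonal and polyclonal Treg cells (adjusted p = 0.0525).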
